A study of Mus musculus with 7 samples.

Results

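Aminoacyl-tRNA synthetases join each amino acid to its tRNA, and so load the adaptors that ribosomes use to read mRNA. Mammalian cells keep one set in the cytosol, and a separate set, also encoded in the nucleus, is imported into mitochondria to serve translation of the mitochondrial genome. Several cytosolic enzymes sit together in a multi-synthetase complex held by the scaffold proteins encoded by *Aimp1* and *Aimp2*. Many cytosolic synthetase genes are also known as targets of ATF4, the transcription factor of the integrated stress response, a pathway that senses uncharged tRNA through the kinase GCN2. Oocytes of growing follicles translate heavily while they enlarge and store maternal mRNA and protein. The genes described here are 38 of the 22877 genes in the deposited table, taken by gene symbol and not by any measured value. They comprise 22 cytosolic genes, among them *Aimp1* and *Aimp2*, and 16 mitochondrial ones, whose symbols end in 2. All 38 had a row in the table.

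RNA was sequenced from oocytes of secondary follicles of 8-week-old C57BL/6J mice, with 5 oocytes pooled per library. The groups are WT (4 libraries) and *Mfn1*-/- (3 libraries), in which floxed *Mfn1*, a gene for mitochondrial outer membrane fusion, was deleted by Cre recombinase under the ZP3 promoter, which is active in growing oocytes and not in granulosa cells. The sources used here do not say whether WT animals carried the floxed allele or Cre, or whether the libraries came from separate animals. The submitters' design text gives an n of 3 for each genotype, while 4 WT libraries were deposited.

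The table gives 1 mean of normalized counts per genotype and gene. With nothing per library to work from, neither a replicate spread nor a test can be given, and every difference below describes a pair of means without an error. Where means are given as a pair, that of *Mfn1*-/- comes first. The means summed to 142576 in *Mfn1*-/- and 130160 in WT oocytes, and the depth of each library is unknown. The deleted gene *Mfn1* stood at 0.0577 in *Mfn1*-/- against 0.616 in WT oocytes, a log2 fold change of -2.18. All 14 oocyte marker genes were in the table, 13 of them with a mean of at least 1. Of 16 granulosa cell markers, 14 were in the table and 2 had a mean of at least 1. Their summed level was 8.32 in *Mfn1*-/- and 6.58 in WT oocytes. Of the 14, 4 were higher in *Mfn1*-/- and 10 lower, with a median log2 fold change of -0.02. The markers with a mean of at least 1 were both higher, *Serpine2* with 5.91 and 4.79 and *Inha* with 1.87 and 0.954 (log2 fold change 0.90). *Hsd17b1* (0.0412 and 0.152) and *Cyp19a1* (0.0846 and 0.193) were lower, with -0.84 and -0.67, and *Amh*, *Fshr* and *Foxl2* were at or below 0.0525 in both genotypes. Of 13 markers of theca, stroma, endothelium and blood, 6 were in the table, with summed levels of 0.378 and 0.398. The part of such cells in the values below was not tested, and in pooled cells a change in RNA per cell cannot be told apart from a change in the share of cells.

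Most synthetase genes had a somewhat higher mean in *Mfn1*-/- than in WT oocytes, and over the 38 the log2 fold change had a median of 0.26. A higher mean was found for 33 of the 38 members, against 56.7% of all genes and 65.4% of the 6226 genes averaging at least 1 over the 7 libraries. Differences are given as the log2 ratio of *Mfn1*-/- to WT means after 0.1 was added to each, which makes the differences of low genes smaller. On this log2 scale the median was 0.24 for the 22 cytosolic genes and 0.28 for the 16 mitochondrial genes. The median was 0.16 over the 6226 expressed genes, 0.01 over the 16651 genes with a mean under 1, and 0.04 over all genes. A small upward shift was thus seen in the expressed genes and hardly in the low ones. Against the shift of 0.16, 23 members lay above and 15 below, although 20 of the 38 members had a mean under 1. A difference past 2-fold was seen for 2 members, *Yars2* and *Tars2*, both mitochondrial and both higher in *Mfn1*-/- oocytes. This compares with 4.87% of all genes that were higher and 2.75% that were lower by more than 2-fold, and with 5.44% and 3.24% of the expressed genes. No member was lower by more than 2-fold. With a 1.5-fold threshold 7 members were higher and 0 lower, against 12.4% and 6.88% of all genes.

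**Figure D1:**
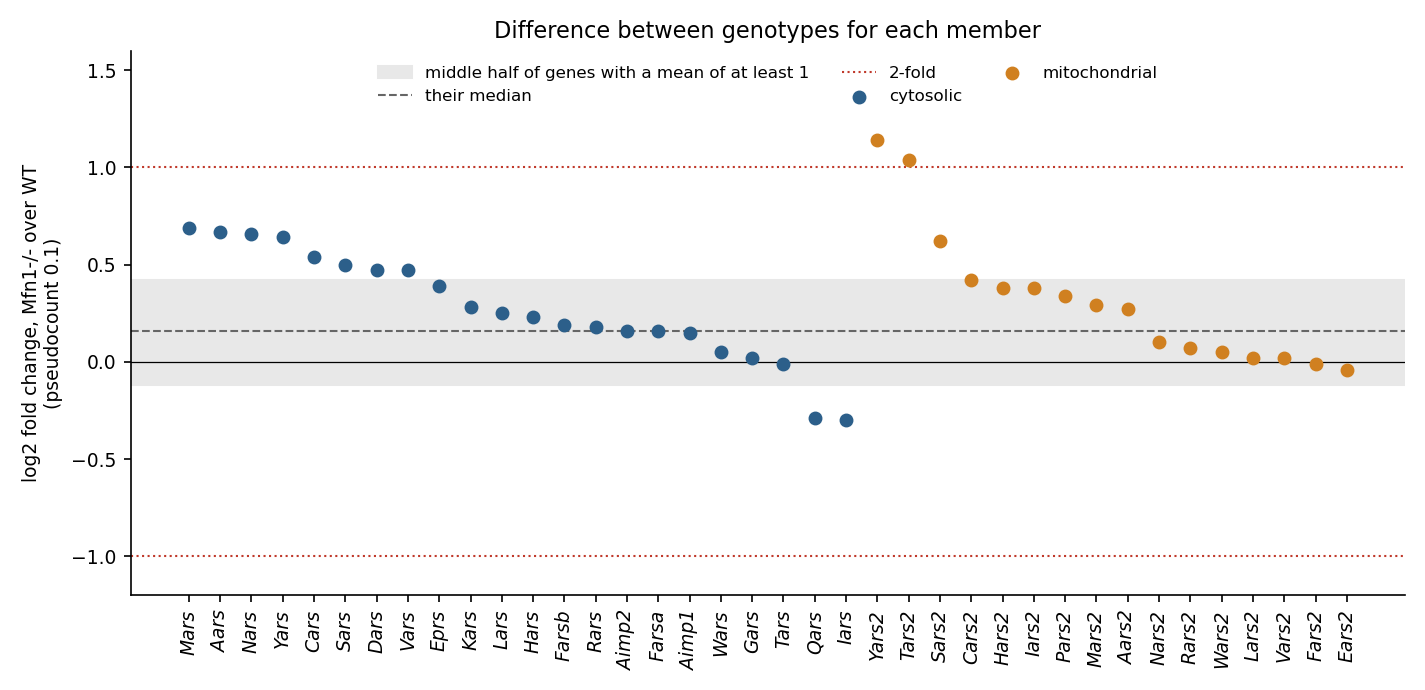
Log2 fold change (*Mfn1*-/- over WT, pseudocount 0.1) of each member, in order within the cytosolic (blue) and mitochondrial (orange) genes. The grey band runs from the lower to the upper quartile (-0.12 to 0.42) of the 6226 genes averaging at least 1, the dashed line their median of 0.16, and the dotted lines mark 2-fold differences. *Yars2* at 1.14 and *Tars2* at 1.04 lie past the upper dotted line, and *Iars* at -0.30 is the lowest member.

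*Yars2* encodes the mitochondrial tyrosyl-tRNA synthetase and is annotated on chromosome 16 (16302965 to 16309640, GRCm38, GENCODE M21). *Mfn1*-/- oocytes averaged 1.91 normalized counts of it against 0.813 in WT, which is a 2.35-fold ratio and a log2 fold change of 1.14. *Tars2*, for the mitochondrial threonyl-tRNA synthetase, is on chromosome 3 (95739976 to 95760206). It averaged 0.641 against 0.26, a 2.47-fold ratio and a log2 fold change of 1.04. Set against genes of like level (a mean no more than 2-fold away), *Yars2* exceeded 93.2% of 3476 and *Tars2* 90.3% of 4416. After the shift of 0.16 was subtracted the values were 0.98 and 0.88, so neither then passed 2-fold.

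The 100 bases before the RefSeq transcription start of these 2 genes (GRCm38.p6, chr16:16302865-16302964, plus strand, and chr3:95754978-95755077, minus strand) are printed along the gene's strand because they are the members with the largest log2 fold changes.
*Yars2*: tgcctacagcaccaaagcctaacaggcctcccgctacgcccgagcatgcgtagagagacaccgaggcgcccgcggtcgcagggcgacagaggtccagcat
*Tars2*: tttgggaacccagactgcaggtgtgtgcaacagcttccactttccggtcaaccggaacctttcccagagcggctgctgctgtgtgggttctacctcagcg
The 300-base window around each of these starts held none of the 3 motifs searched below.

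Among the other mitochondrial genes, *Sars2*, for the seryl enzyme, averaged 1.3 in *Mfn1*-/- and 0.812 in WT oocytes, a log2 fold change of 0.62. *Cars2*, for the cysteinyl enzyme, had 0.329 and 0.22, and *Hars2*, for the histidyl enzyme, had 0.0685 and 0.0293. The log2 fold changes of *Cars2* and *Hars2* were 0.42 and 0.38. The ratio of the *Hars2* means was 2.34 without the added constant, so its place in the order depends on that constant. *Iars2* (0.148 and 0.0911), *Pars2* (1.11 and 0.853), *Mars2* (0.195 and 0.141) and *Aars2* (0.185 and 0.137) had log2 fold changes from 0.27 to 0.38. The remaining 7 mitochondrial genes lay below the shift of 0.16, which is that of expressed genes. Against genes of like level these 7 exceeded between 42% (*Ears2*) and 64.4% (*Nars2*). At the lower end stood *Ears2*, for the glutamyl enzyme, with means of 0.187 and 0.196, and *Fars2*, for the phenylalanyl enzyme, with 0.143 and 0.145. Their log2 fold changes of -0.04 and -0.01 were the only negative ones in the mitochondrial group. *Vars2* (0.22 and 0.216), *Lars2* (0.103 and 0.10), *Wars2* (0.0828 and 0.0763), *Rars2* (1.39 and 1.32) and *Nars2* (0.0407 and 0.0309) differed by at most 0.10 on the log2 scale. The 16 mitochondrial means summed to 8.05 in *Mfn1*-/- against 5.44 in WT, or 1.48-fold. A mean of at least 1 over the libraries was seen for 3 of the 16, *Yars2*, *Rars2* and *Sars2*, and the other 13 had lower values.

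**Figure D2:**
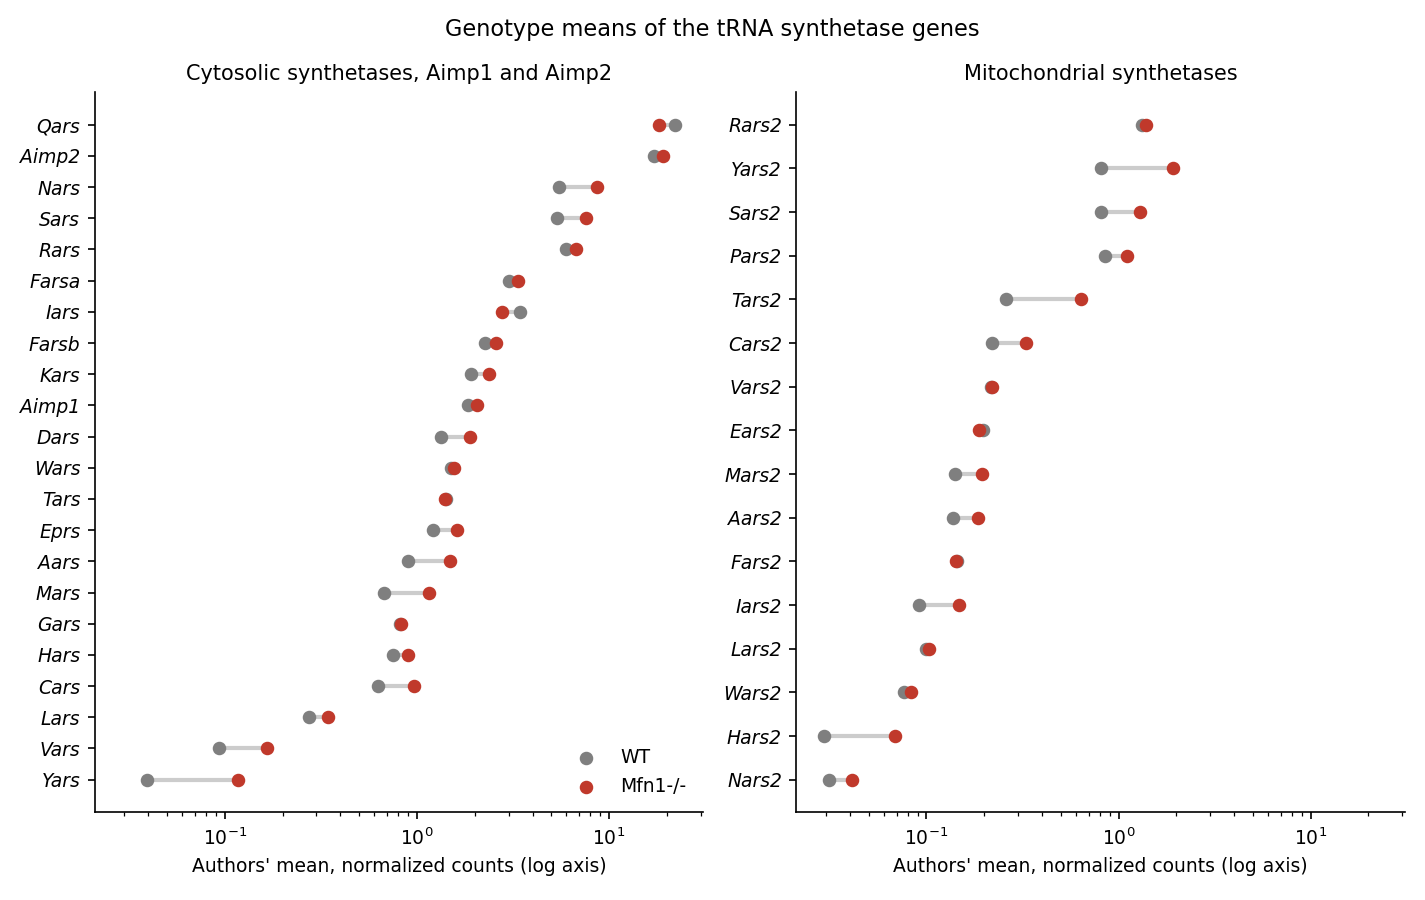
Mean of normalized counts of each member in WT (grey) and *Mfn1*-/- (red) oocytes on a log axis, as the authors' means, 1 value per genotype and without error bars, with genes ordered for display by their mean over the 7 libraries, which is no comparison of level between genes. The genotypes lie far apart for *Yars2*, *Tars2*, *Hars2* and *Yars*, while *Qars* (18.2 and 22.2) and *Iars* (2.76 and 3.43) are the cytosolic members with the clearest lower mean in *Mfn1*-/-.

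No cytosolic gene passed 2-fold. The 5 highest log2 fold changes were those of *Mars* (0.69), *Aars* (0.67), *Nars* (0.66), *Yars* (0.64) and *Cars* (0.54). All 5 are on the ATF4 list described below, as are 12 of the 20 cytosolic synthetases. *Mars*, for the methionyl enzyme (chromosome 10, 127296221 to 127311786), averaged 1.15 in *Mfn1*-/- against 0.673 in WT. *Aars*, for the alanyl enzyme (chromosome 8, 111033144 to 111057664), had 1.49 and 0.898. *Nars*, for the asparaginyl enzyme, had 8.71 and 5.47, and exceeded 88.8% of 1959 genes of like level. *Yars*, for the tyrosyl enzyme, had 0.117 and 0.0393. Its ratio of 2.98 was the highest among the 38 members, and its log2 fold change with the added constant was 0.64. *Cars*, for the cysteinyl enzyme, had 0.96 and 0.63. *Sars* (7.63 and 5.36), *Dars* (1.88 and 1.33), *Vars* (0.166 and 0.0927) and *Eprs* (1.62 and 1.21), which encodes the fused glutamyl and prolyl enzyme, followed with log2 fold changes from 0.39 to 0.50.

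Without an added constant, 4 members had a ratio above 2, *Yars*, *Tars2*, *Yars2* and *Hars2*. Among the 21018 genes with both means above the lowest value in the table, 10.9% had such a ratio. With the constant, 4.65% of genes with a mean under 1 were higher by more than 2-fold. *Yars* and *Hars2*, with means of 0.0726 and 0.0461 over the libraries, both had values below that constant or close to it.

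At the other end of the cytosolic group stood *Iars* and *Qars*. *Iars*, for the isoleucyl enzyme (chromosome 13, 49682100 to 49734267), averaged 2.76 in *Mfn1*-/- against 3.43 in WT, a log2 fold change of -0.30. *Qars*, for the glutaminyl enzyme (chromosome 9, 108507706 to 108515941), had 18.2 and 22.2, a log2 fold change of -0.29, and exceeded 11% of 1186 genes of like level. *Tars*, for the threonyl enzyme, had 1.40 and 1.41. *Gars*, for the glycyl enzyme, had 0.827 and 0.815, and *Wars*, for the tryptophanyl enzyme, 1.56 and 1.50. The genes *Gars* and *Kars* each supply both compartments, and *Kars*, for the lysyl enzyme, had means of 2.36 and 1.92. *Lars* (0.345 and 0.274), *Hars* (0.899 and 0.749), *Farsb* (2.59 and 2.26), *Rars* (6.77 and 5.96) and *Farsa* (3.36 and 3.00) had log2 fold changes from 0.16 to 0.25, near the shift of 0.16. The scaffold genes were close to it as well, *Aimp2* with 19.2 and 17.2 and *Aimp1* with 2.06 and 1.85, log2 fold changes of 0.16 and 0.15.

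In the multi-synthetase complex (*Eprs*, *Iars*, *Lars*, *Mars*, *Qars*, *Rars*, *Kars*, *Dars*, *Aimp1* and *Aimp2*), 8 of 10 genes were higher in *Mfn1*-/- oocytes and the median log2 fold change was 0.22. Their means summed to 56.3 and 56.0, with *Qars* and *Iars* lower and the other 8 higher. The 12 cytosolic genes outside the complex had a median of 0.35 and sums of 29.7 and 22.2, with 11 of 12 higher. For comparison, 56.7% of all genes and 65.4% of genes with a mean of at least 1 were higher. Above the shift of 0.16 lay 6 of the 10 genes of the complex and 8 of the 12 outside it. By the structural class of the enzyme, the medians were 0.25 for 9 cytosolic genes of class I and 0.26 for 10 of class II. They were 0.07 for 9 mitochondrial genes of class I and 0.34 for 7 of class II. None of these differences between groups was tested.

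Cytosolic and mitochondrial genes for the same amino acid were set side by side in 17 pairs, in which *Eprs* and *Fars2* each occur in more than 1. Both genotype differences had the same sign in 12 pairs and opposite signs in 5. Since 86.4% of the cytosolic and 87.5% of the mitochondrial members were higher in *Mfn1*-/-, unrelated genes would also share a sign in most pairs. The largest gap was that of *Tars* and *Tars2*, with log2 fold changes of -0.01 and 1.04. *Iars* and *Iars2* followed, with -0.30 and 0.38, and then *Nars* and *Nars2*, with 0.66 and 0.10. The tyrosyl pair *Yars* and *Yars2* was high in both compartments (0.64 and 1.14), as was the seryl pair *Sars* and *Sars2* (0.50 and 0.62). The other pairs of opposite sign were *Eprs* with *Ears2* (0.39 and -0.04), and *Farsa* and *Farsb* with *Fars2* (0.16, 0.19 and -0.01). The cytosolic gene had the higher log2 fold change in 11 pairs and the mitochondrial gene in 5.

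**Figure D3:**
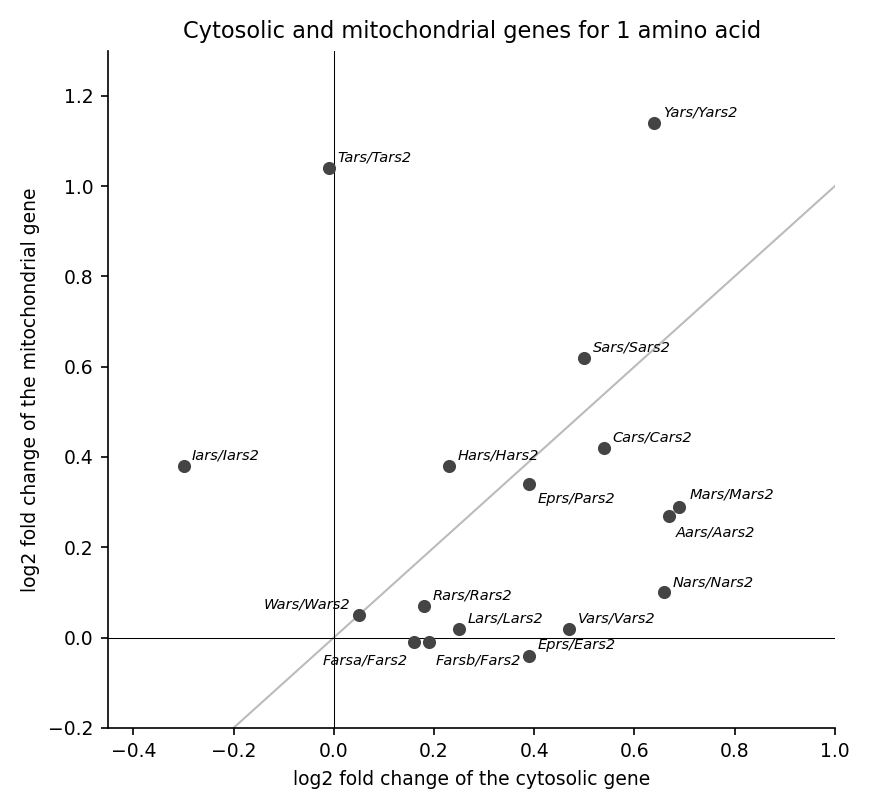
Log2 fold change (*Mfn1*-/- over WT, pseudocount 0.1) of the cytosolic gene (horizontal axis) and the mitochondrial gene (vertical axis) in 17 pairs for the same amino acid, 1 point per pair, with the grey diagonal marking equal values. *Tars* with *Tars2* (-0.01 and 1.04) and *Yars* with *Yars2* (0.64 and 1.14) stand above the other pairs, and *Iars* with *Iars2* is the only pair far to the left.

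A list of 12 cytosolic synthetases commonly named as ATF4 targets (*Aars*, *Cars*, *Eprs*, *Gars*, *Iars*, *Lars*, *Mars*, *Nars*, *Sars*, *Tars*, *Wars* and *Yars*) was compared with the 8 other cytosolic synthetases. The listed genes had a median log2 fold change of 0.45 and ranged from -0.30 to 0.69, with 10 of 12 higher in *Mfn1*-/- oocytes. The 8 others had a median of 0.21 and ranged from -0.29 to 0.47, with 7 of 8 higher. Of all genes, 56.7% were higher, and of those with a mean of at least 1, 65.4%. Above the shift of 0.16 lay 8 of the 12 listed genes and 6 of the 8 others. The 4 cytosolic members past 1.5-fold (*Mars*, *Aars*, *Nars* and *Yars*) were all on the list, which holds 12 of the 20 cytosolic synthetases. Past 1.5-fold, 12.4% of all genes were higher. *Iars*, *Tars*, *Gars* and *Wars* of the same list had log2 fold changes of at most 0.05. The groups overlap over most of their range. Summed means were 28.6 against 21.7 for the listed genes, and 36.2 against 37.5 for the others.

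Promoter windows of RefSeq (GRCm38.p6), from 250 bases before to 50 bases after the transcription start, were at hand for 29 of the 38 members. They were searched on both strands for the letters TGATGNAA, the core of the element that ATF4 binds together with C/EBP partners. A match was found in 5 of 15 cytosolic members, in 0 of 14 mitochondrial members, and in 4.51% of the 27025 genes with a window. Among genes with a mean of at least 1 and a window the share was 2.94%. All 5 members with a match, *Aars*, *Gars*, *Iars*, *Tars* and *Yars*, are among the 8 genes of the ATF4 list that have a window. For 1 match of each gene 30 bases along the gene's strand are printed, with the match in capitals, so that the windows can be read beside the genotype means. Positions rest on the RefSeq start, which can differ from the GENCODE gene bounds given above. The stretches are chr8:111033840-111033869 (*Aars*, plus strand), chr6:55037960-55037989 (*Gars*, plus), chr13:49682126-49682155 (*Iars*, plus), chr15:11399655-11399684 (*Tars*, minus) and chr4:129189895-129189924 (*Yars*, plus).
*Aars*: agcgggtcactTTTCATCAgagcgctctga
*Gars*: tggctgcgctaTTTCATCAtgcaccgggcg
*Iars*: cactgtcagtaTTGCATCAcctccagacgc
*Tars*: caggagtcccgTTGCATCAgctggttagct
*Yars*: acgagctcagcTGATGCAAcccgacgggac
*Aars* and *Yars* had log2 fold changes of 0.67 and 0.64, while *Gars* (0.02), *Tars* (-0.01) and *Iars* (-0.30) lay below the shift of 0.16. *Mars*, on the list and with the highest cytosolic value (0.69), had no match in its window. A match is a description of the window and not of binding.

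A pair of other motifs was searched as well. The letters GCGCATGC, from the site of NRF1, a regulator of nuclear genes for mitochondrial proteins, were found in 3 of 14 mitochondrial members (*Rars2*, *Vars2* and *Wars2*) and 0 of 15 cytosolic members. They occur in 3.05% of all genes and 6.99% of genes with a mean of at least 1. These 3 members had log2 fold changes from 0.02 to 0.07. The letters CCGGAAG, from the site of ETS factors, were found in 7 of 15 cytosolic and 4 of 14 mitochondrial members. They occur in 9.93% of all genes with a window and 25.8% of genes with a mean of at least 1.

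Other genes of the charging pathway showed mixed values. Of 19 genes, 12 were higher and 7 lower in *Mfn1*-/- oocytes, and the median log2 fold change was 0.17. Of all genes 56.7% were higher. *Sepsecs*, for the enzyme that completes selenocysteine on its tRNA, had 0.418 and 1.06, lower by more than 2-fold (log2 fold change -1.16). Its partner kinase gene *Pstk*, which acts just before it, had 2.07 and 2.29 (-0.14). Among genes of the list with a mean of at least 1, *Dalrd3* (0.44) and *Aarsd1* (0.35) stood toward the upper end, and *Lrrc47* (-0.01) and *Elac2* (0.16) next to *Pstk* at the lower end. *Eef1e1*, which encodes the third accessory protein of the complex, had 9.22 and 7.92 (0.22), close to *Aimp1* and *Aimp2*.

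Known ATF4 targets other than synthetases had a wider range. Of 25 such genes 20 had a higher mean in *Mfn1*-/- oocytes, against 56.7% of all genes, and the median log2 fold change was 0.56. By more than 2-fold 6 were higher and 0 lower, against 4.87% and 2.75% of all genes. Of these 6, only *Eif4ebp1* and *Chac1* had a mean of at least 1. With a mean of at least 1, the highest were *Eif4ebp1*, an inhibitor of cap-dependent translation, with means of 2.92 and 0.516 (2.29), *Chac1*, a glutathione-degrading enzyme, with 5.01 and 1.25 (1.92), and *Cebpb*, a transcription factor, with 67.6 and 37.1 (0.86). The lowest were *Phgdh*, the first enzyme of serine synthesis (-0.15), *Ddit3*, which encodes CHOP (0.03), and *Mthfd2* of the mitochondrial folate pathway (0.17). Below a mean of 1 the list reached lower, with *Cth*, an enzyme of cysteine synthesis, at 0.322 and 0.636 (-0.80) and *Slc7a11*, a cystine transporter, at 0.0579 and 0.146 (-0.64), both past 1.5-fold. *Asns*, whose product makes asparagine, is also below a mean of 1 and had 0.88 and 0.195 (1.73), while *Nars*, which charges that amino acid, had a log2 fold change of 0.66. The list was written with earlier results of these data known. *Atf4* itself had means of 55.4 and 45.5 (0.28), and *Eif2ak4*, the gene of the uncharged tRNA sensor GCN2, had 0.214 and 0.22 (-0.03). A list of 9 genes around eIF2 holds the kinases *Eif2ak1* to *Eif2ak4*, *Gcn1l1*, *Eif2s1*, *Atf4*, *Ppp1r15a* and *Ppp1r15b*. Of these 3 had a higher mean in *Mfn1*-/- oocytes, *Atf4*, *Ppp1r15a* and *Gcn1l1*, against 56.7% of all genes. The median log2 fold change of the 9 was -0.03. All the kinases on it had lower means, as did 9810 of the 22877 genes. *Eif2ak1* had a log2 fold change of -0.29. The other kinases, with means under 1, differed little, with -0.07 to -0.03.

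**Figure D4:**
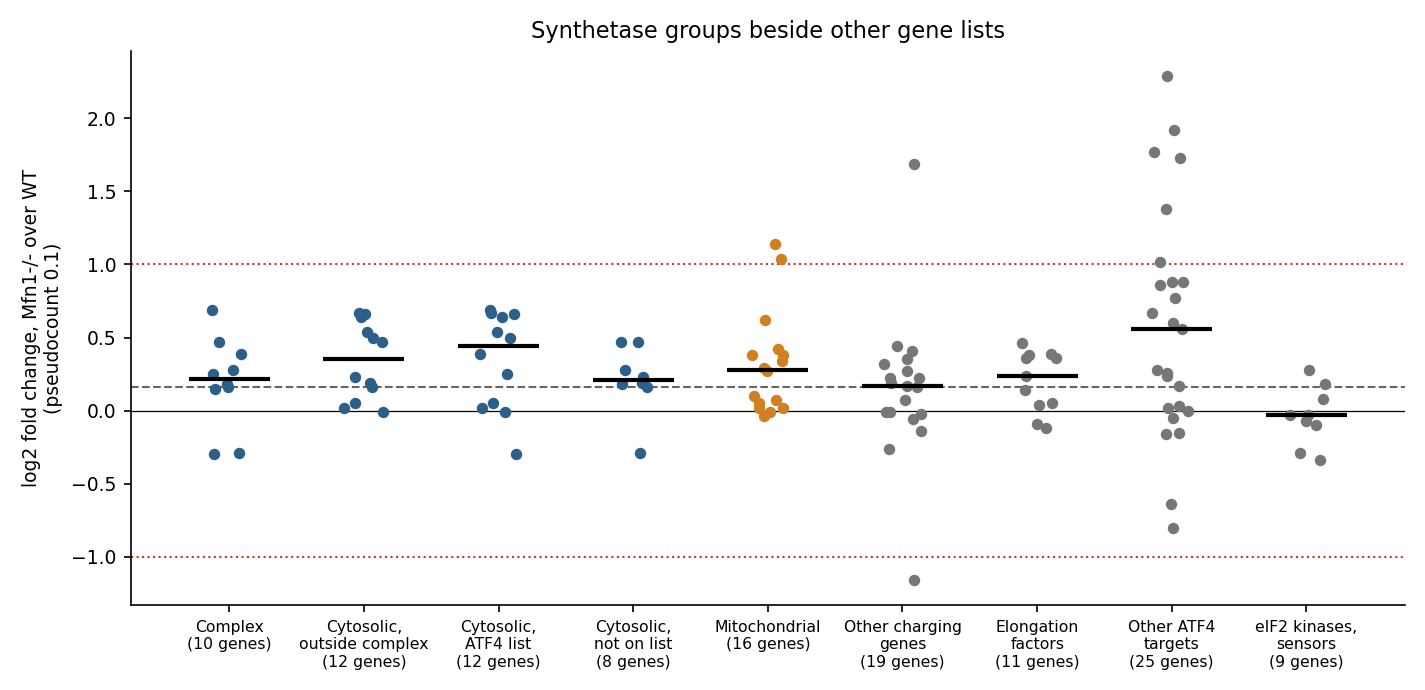
Log2 fold change (*Mfn1*-/- over WT, pseudocount 0.1) of single genes (points, spread sideways for view) in the synthetase groups (cytosolic blue, mitochondrial orange) and in other lists (grey), with black bars for medians, the dashed line at 0.16 for genes with a mean of at least 1 and dotted lines at 2-fold. The medians run from 0.21 to 0.45 over the synthetase groups, with 0.56 for the other ATF4 targets. The group of eIF2 kinases and sensors, at -0.03, also holds *Atf4*, *Eif2s1*, *Ppp1r15a* and *Ppp1r15b*. Genes of one group may also be in another.

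The position of several members bears on how their counts can be read. The annotation places the start of another protein-coding gene on the opposite strand within 1000 bases of 11 members, which makes 10 pairs, since *Hars* and *Hars2* face each other across 197 bases. The differences had the same sign in 6 of the 10 pairs. Since 33 of the 38 members and 56.7% of all genes were higher in *Mfn1*-/-, unrelated genes would also often share a sign. *Yars* and *S100pbp*, whose starts are 33 bases apart, had log2 fold changes of 0.64 and 0.71. *Sars2* and *Mrps12*, a gene for a mitochondrial ribosomal protein, start 172 bases apart and had 0.62 and 0.40. *Kars* and *Terf2ip*, 75 bases apart, had 0.28 and 0.95, while *Rars2* and *Orc3*, 13 bases apart, had 0.07 and 0.03. For *Ears2* and *Ubfd1* the signs differed (-0.04 and 0.36).

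Exon bases are shared with a gene on the opposite strand by 15 members, and the sources used here do not state whether counting used strand, so reads there cannot be assigned with certainty. *Aimp2* shares 487 bases with *Eif2ak1*, the gene of the heme-regulated eIF2 kinase (means 0.996 and 1.24), and *Mars* shares 68 bases with *Ddit3* (18.6 and 18.2). *Iars2* shares 2034 bases with *Rab3gap2* (0.406 and 0.466). *Cars2* shares 422 bases with *Naxd* (2.96 and 1.87, log2 fold change 0.64), and *Hars2* shares 195 bases with *Hars* (0.899 and 0.749). The part of *Naxd* and *Hars* reads in the values of *Cars2* and *Hars2* was not tested. *Aars* shares 1326 bases with *Exosc6* on the same strand, which had means of 12.7 and 9.82 and a log2 fold change of 0.37, and its part in the value of *Aars* was not tested. Matches of at least 75 bases at 95% identity or more to other genes were found in 8 members (*Cars2*, *Eprs*, *Farsa*, *Iars*, *Kars*, *Qars*, *Tars2* and *Yars*). The longest, 1656 bases, was that of *Iars* with 1 pseudogene, and those of *Tars2* were at most 118 bases.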

How the data were processed

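RNA of pooled oocytes was amplified with the Smart-Seq2 protocol and sequenced as 75-base paired reads. By the study's methods and the submitters' processing notes, reads were trimmed with Cutadapt, aligned with STAR to GRCm38/mm10 and compared with DESeq2. The annotation, the normalization and any scaling to gene length are not given in the sources used here. The authors deposited signal values, namely normalized counts averaged within each genotype, with a column of totals. In 100% of genes, adding 3 *Mfn1*-/- means to 4 WT means gave that total to within 1%. The table also holds the authors' own p-value, FDR, ratio and fold change, which were not used.

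Among 9781 protein-coding genes with a mean of at least 0.1, the median mean was 3.78 in the eighth with the shortest transcripts and 0.337 in the eighth with the longest. The level of one gene was therefore not tested or ranked against that of another, and a sum over genes is weighted toward those with high values, which may depend on length. Samples were grouped by title. Log2 fold changes used a pseudocount of 0.1 and no filter on low values, the code was tested on simulated data, and no test across samples was possible. Alternatives were other pseudocounts, minimum means, scalings, fold thresholds and member lists.

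Members and lists were chosen with earlier results of these data known, and the motifs and neighbouring genes after the values were seen. The rule for named genes took those past 2-fold, the 5 highest and 5 lowest of each compartment, pairs of opposite direction, the extremes of mean, and the 3 highest and 3 lowest genes with a mean of at least 1 in other lists. Further members, and *Asns*, *Cth*, *Slc7a11*, *Eif2ak4*, *Sepsecs*, *Eef1e1*, *Gfm1* and *Eef2k*, were added outside that rule, after their values were seen. The other genes of the list around eIF2 were added in the same way. Some items that the rule or the search took are not reported here. Gene models came from GENCODE M21 (38 of 38 symbols found) and promoter windows from RefSeq GRCm38.p6 (29 of 38). *Cars*, *Hars*, *Hars2*, *Lars*, *Nars*, *Pars2*, *Rars*, *Vars* and *Wars* were without a window. Python 3.11.15, numpy 2.4.6, pandas 2.3.3, matplotlib 3.10.9 and blastn 2.17.0 were used.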

Additional observations from a re-analysis of the deposited data

How the results depend on the processing

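The table gives 1 mean per genotype, so replicates could not be left out in turn. No paired analysis was possible because no values of single libraries were used. Of 48 values under the alternatives, 31 kept to the reported one within 1.5 times (counts) or within 0.1 (log2 medians). The cause of the other differences was not tested. Some agreement was fixed in advance, since a pseudocount cannot change which genotype mean is higher. A further 8 values are the count of lower members, 0 in each. The rule also counts 23 against 33 higher members as kept, so the 31 are no measure of stability. With a pseudocount of 0.01 the mitochondrial median was 0.39. With a pseudocount of 1, 0 members passed 2-fold, the cytosolic median was 0.13 and the mitochondrial 0.06, and the difference between them turned from -0.04 to 0.07. With no pseudocount 4 members passed and the mitochondrial median was 0.42. With only the 18 members whose mean was at least 1, 15 were higher and 1 passed, the mitochondrial median was 0.62 and the cytosolic minus mitochondrial difference -0.44, from 3 mitochondrial genes. With the median of expressed genes subtracted, 23 members were higher, 0 passed, and the medians were 0.08 (cytosolic) and 0.12 (mitochondrial). With means divided by their sum, 27 were higher, 1 passed and the cytosolic median was 0.13. With a 1.5-fold threshold 7 passed. Under every alternative 0 members were lower past the threshold and both medians were above 0. The main limits are the lack of replicate values, the unknown depth, and low means, under 1 in 20 members, for which the size of the difference depends on the pseudocount.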

Other observations

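Translation elongation factors, which bring the charged tRNA to the ribosome or move it along, lay in the range of the synthetases. The list of 11 genes also holds *Eef2k*, for the kinase of the factor encoded by *Eef2*, with a log2 fold change of -0.09. Of the 11, 9 had a higher mean in *Mfn1*-/- oocytes, against 56.7% of all genes and 65.4% of expressed genes. Past 2-fold in either direction there were 0, and the median log2 fold change was 0.24. *Tufm*, for the mitochondrial factor of tRNA delivery, had means of 4.38 and 3.33 in *Mfn1*-/- and WT oocytes (log2 fold change 0.39). *Tsfm*, for its exchange factor, had 3.17 and 2.45 (0.36). The cytosolic factors *Eef2* (0.38), *Eef1b2* (0.36), *Eef1a1* (0.14) and *Eef1d* (0.05) spanned a similar range. *Gfm1*, a mitochondrial translocation factor, had means of 0.572 and 0.629 and a log2 fold change of -0.12.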
